A study of Mus musculus with 425 samples.

Results

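Small RNA fragments of the tRNAs for arginine, asparagine, glutamine, isoleucine, methionine, phenylalanine, proline, threonine, tryptophan, tyrosine and selenocysteine were followed from testicular sperm to cauda sperm and in the epididymis. The mice were bred to lack Dgcr8 in germ cells or in the epididymis. The members are the tRNA genes whose identifier ends in an anticodon label of one of these amino acids. They were 153 of the 435 tRNA genes counted and carried 23 of the 53 anticodon labels. The remaining 282 tRNA genes carried the other 30 labels, and the whole small RNA tables held 2343 features. Arginine had 24 genes with 5 anticodons, methionine 19 genes with 1 anticodon, and proline and threonine 18 genes each with 3 anticodons apiece. Isoleucine had 17 genes, glutamine 16, asparagine 14, tyrosine 10, tryptophan 8, phenylalanine 7 and selenocysteine 2.

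tRNAs carry amino acids to the ribosome, and nucleases cut them in or near the anticodon loop into fragments. Fragments of tRNA are abundant in mature sperm, and the epididymis, the duct in which sperm mature, is known to pass small RNAs to sperm in vesicles. DGCR8 binds primary microRNA transcripts together with the nuclease DROSHA and is needed for most microRNAs, but tRNAs are not made through it. RNase P and RNase Z trim precursor tRNAs, and a splicing complex removes the introns of a few of them.

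Stra8-iCre and Defb41-iCre were the Cre drivers used. Stra8-iCre is active in the male germ line and Defb41-iCre in the epididymal epithelium. Control males of both lines carried the driver and 1 floxed allele (Dgcr8+/fl), and conditional knockout (cKO) males carried the driver and 2 floxed alleles (Dgcr8fl/fl), so the Cre was present in both arms. The labels give no age or strain for these males. In the Stra8-iCre line there were 4 control and 4 cKO libraries of testis sperm, 4 and 4 of cauda sperm, 7 and 7 of caput epididymis and 6 and 8 of cauda epididymis. In the Defb41-iCre line there were 4 and 4 libraries of testis sperm, 8 and 8 of cauda sperm, 3 and 3 of caput epididymis and 4 and 3 of cauda epididymis. No label tells whether libraries within a group stem from different animals. A p-value thus measures the spread between these libraries, which may be technical.

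The genes of these tRNAs are short, and several anticodon labels can be told apart by few bases. The RefSeq sequences (GRCm38) of the genes the results turn on are shown here with the anticodon in capitals. The most frequent gene sequence of each proline label differed from the others at the anticodon alone, by 1 base of 72.

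ProAGG (n-TPagg2, chr1:165641634-165641705, plus strand): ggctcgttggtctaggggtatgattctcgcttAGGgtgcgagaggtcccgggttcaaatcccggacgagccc
ProCGG (n-TPcgg1, chr17:23540915-23540986, plus strand): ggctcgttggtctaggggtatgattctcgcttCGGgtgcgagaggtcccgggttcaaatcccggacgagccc
ProTGG (n-TPtgg4, chr11:48856280-48856351, plus strand): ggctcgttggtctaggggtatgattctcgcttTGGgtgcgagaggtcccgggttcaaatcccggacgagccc

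All 6 RefSeq genes of ProAGG, all 3 of ProCGG and 4 of the 7 of ProTGG shared the 32 bases before the anticodon and the 37 bases after it. A fragment that ends short of the anticodon therefore cannot be told apart among these labels, and the files give neither the position of a fragment in its tRNA nor how reads with several matches were counted. The other genes shown are threonine and arginine genes whose values differed most, the commonest RefSeq sequence of the tyrosine label, and the initiator type of methionine tRNA, which reads the start codon of a protein.

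chr11.trna550-ThrCGT (n-TTcgt3, chr11:79704650-79704721, plus strand): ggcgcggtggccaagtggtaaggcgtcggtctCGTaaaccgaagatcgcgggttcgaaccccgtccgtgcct
chr7.trna1217-ThrAGT (n-TTagt9, chr7:35234770-35234843, minus strand): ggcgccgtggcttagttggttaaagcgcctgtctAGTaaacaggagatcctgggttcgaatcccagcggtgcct
chr19.trna639-ArgTCT (n-TRtct1, chr19:12011588-12011673, minus strand): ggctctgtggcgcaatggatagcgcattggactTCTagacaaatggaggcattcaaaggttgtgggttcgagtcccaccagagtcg
TyrGTA (n-TYgta3, chr13:23425646-23425734, minus strand): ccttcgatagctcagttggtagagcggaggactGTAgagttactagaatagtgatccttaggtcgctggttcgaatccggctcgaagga
chr3.trna792-MetCAT, initiator type (n-TMcat11, chr3:90475860-90475931, minus strand): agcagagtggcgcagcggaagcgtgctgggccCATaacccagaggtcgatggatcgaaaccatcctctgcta

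The arginine and tyrosine genes shown hold introns of 13 and 16 bases, which are part of the printed sequence. Of the 153 genes counted, 55 could be tied to 1 RefSeq gene and 6 more to genes of 1 sequence.

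The total count per library ranged from 615991 to 38690140, with a median of 8875490. Levels are given as reads per 1000000 counts of that total (RPM) or as a percentage of all tRNA reads of the library. The RPM of all tRNAs was 38795 to 61899.8 in testis sperm of the Stra8-iCre controls and 672943 to 718095 in their cauda sperm, so a level on the scale of the table total moves with the whole tRNA class, and the percentage of tRNA reads does not. Dgcr8 itself was not measured in sperm. Its mRNA in Stra8-iCre epididymis, where that driver is not known to act, was 0.91, 2.07 and 1.33 TPM, a length-corrected level in caput controls and 0.9, 1.1 and 2.44 in caput cKO libraries.

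Several libraries stood apart. Control library 1 of Defb41-iCre testis sperm held 1743 RPM of the 23 anticodons together, and the next library of its group 504. Control library 4 of Defb41-iCre cauda sperm held 13498 RPM against 6575 in the next. Library 6 of the cKO arm held 13786 RPM against 5124, and the members took 15.7% of its tRNA reads against 1.91% in the next. The Defb41-iCre cauda sperm libraries numbered 5 to 8 carry another style of label than those numbered 1 to 4 and are called the second series. In these 8 libraries the tRNA total of the feature table was 1.01 to 1.51 times that of the deposited class table, while both were equal in the other 74. The genotype fits of that group hold the series as a term, while the comparisons of cauda with testis sperm and the interaction in that line use the first series alone, since testis sperm has no second series.

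**Figure D1:**
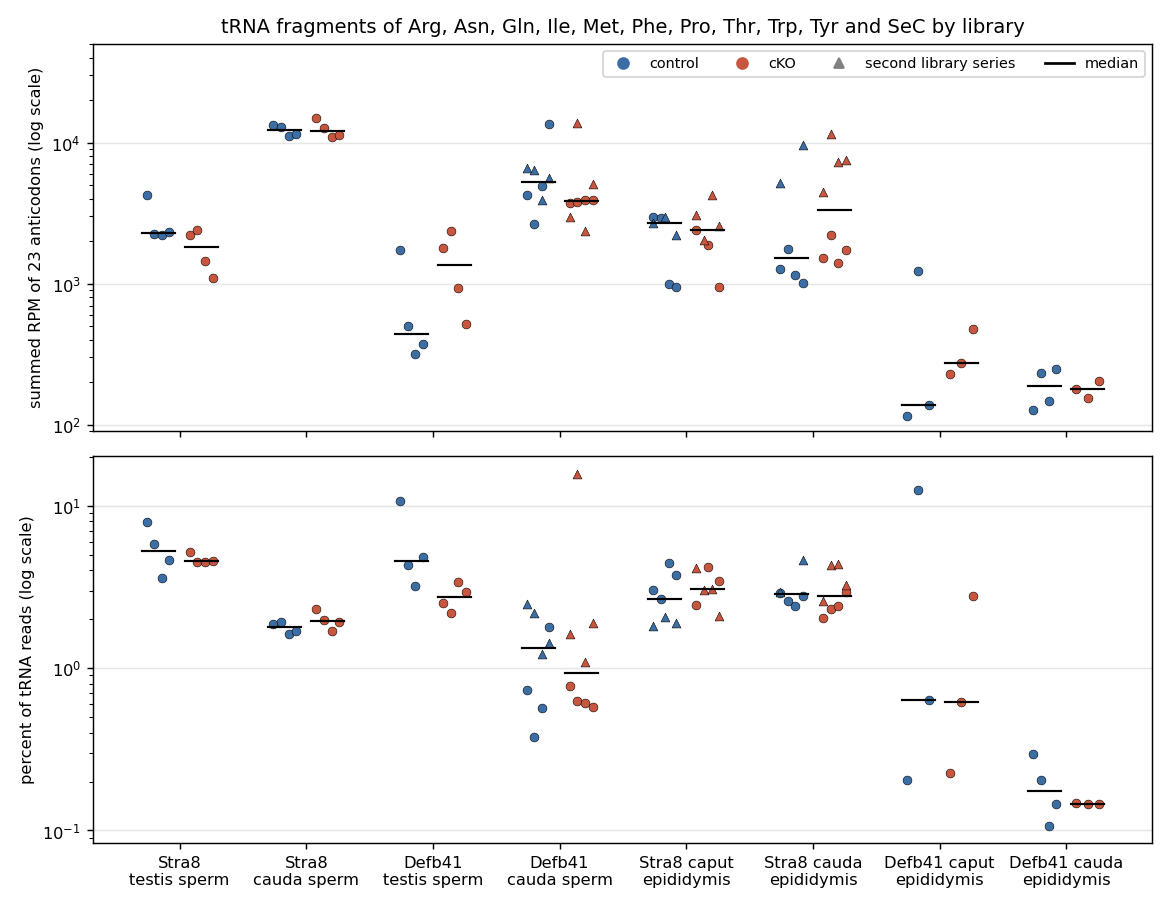
Level of the 23 anticodons in each of the grouped libraries, as summed RPM of the table total (top, log axis) and as percent of tRNA reads (bottom, log axis), with controls in blue, cKO in red, the second library series as triangles and each group's median as a black line. The group medians of summed RPM are highest in Stra8-iCre cauda sperm. The 3 sperm libraries that stand apart in the Defb41-iCre line lie far above their groups, as does the shallow control library 2 of Defb41-iCre caput epididymis.

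The fragments of these amino acids were a small part of the tRNA reads. In Stra8-iCre testis sperm they made up 3.59 to 7.92% of tRNA reads in controls and 4.48 to 5.18% in cKO libraries, and in cauda sperm 1.61 to 1.91% and 1.69 to 2.32%. In Defb41-iCre testis sperm they were 3.19 to 10.6% in controls and 2.19 to 3.37% in cKO libraries, and in the first series of cauda sperm 0.378 to 1.79% and 0.572 to 0.772%. In the second series they were 1.22 to 2.47% and 1.09 to 15.7%. The share was lower in cauda than in testis sperm in both lines, apart from cKO library 6 of Defb41-iCre cauda sperm.

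MetCAT, the only methionine anticodon, led most groups. Its mean was 564 ± 154 RPM (SD, n = 4) in Stra8-iCre testis sperm controls, where GlnCTG, a glutamine anticodon, was at 619 RPM and the pair made up 20.5 and 22.4% of the member reads. In cauda sperm of the same line and genotype MetCAT reached 5378 RPM, or 43.9% of the member reads, followed by the proline anticodons ProAGG at 1023 RPM and ProTGG at 887 RPM. In caput epididymis MetCAT was at 737 RPM and ThrAGT, a threonine anticodon, at 328 RPM, and in cauda epididymis they were at 1326 and 620 RPM. In the Defb41-iCre line MetCAT had a mean of 173 RPM in testis and 1622 RPM in cauda sperm of controls. SeC(e)TCA, the eukaryotic selenocysteine label, had means of 110.4 and 699 RPM. The MetCAT mean in testis sperm was set by control library 1, with 513, 71.1, 49.6 and 58.1 RPM in the 4 libraries, and SeC(e)TCA was above it in the other 3, with 93.6, 114, 88.8 and 145 RPM. TyrGTA, the tyrosine anticodon, led Defb41-iCre caput epididymis at 163 RPM, a mean set by control library 2, the shallowest of its 3 libraries. MetCAT led the cauda epididymis at 42.5 RPM.

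A few genes held much of an anticodon's reads. The gene chr11.trna945 carried 82.7% of ArgCCG and chr11.trna1880 carried 46.1% of TrpCCA, the tryptophan anticodon. At the other end, chr3.trna750 carried 8.06% of AsnGTT, and for methionine 8 genes, among them the initiator-type chr3.trna792-MetCAT, had almost the same mean of 141 to 148 RPM each.

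**Figure D2:**
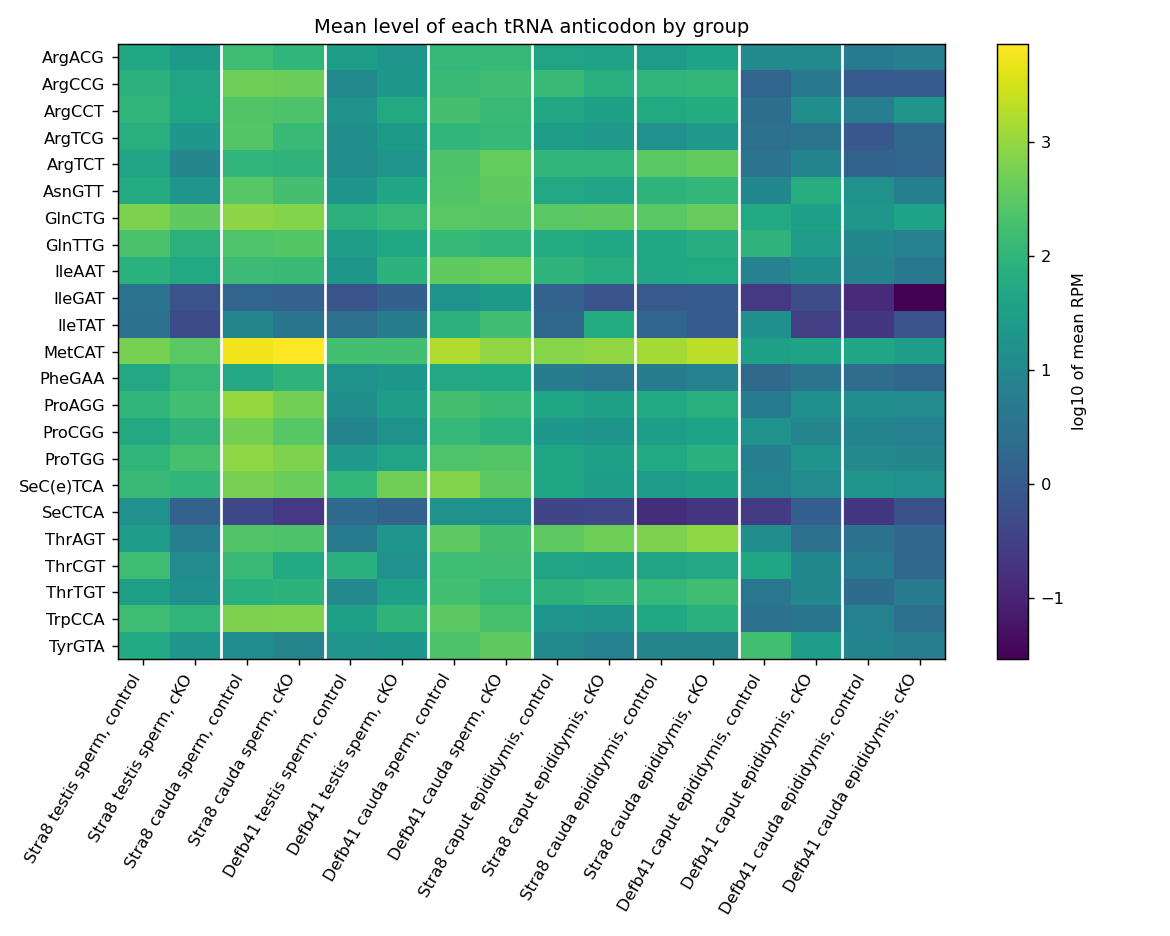
Mean level of each of the 23 anticodons (rows) in the 16 groups (columns), in log10 RPM. MetCAT is high in most groups, the 3 proline anticodons are highest in Stra8-iCre cauda sperm, and the Defb41-iCre epididymis columns are low.

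In testis sperm of males that lack Dgcr8 in germ cells 2 of 3 threonine, 2 of 5 arginine and 1 of 2 glutamine anticodons were lower. ThrCGT was at 246, 97.0, 128 and 128 RPM in the 4 controls and at 19.1, 9.99, 9.73 and 6.90 RPM in the 4 cKO libraries. The groups did not overlap, and the lowest control was several times the highest cKO library. On the log2 scale ThrCGT fell by 3.72 (SE 0.43, adjusted p = 0.00057, edgeR quasi-likelihood test with Benjamini-Hochberg adjustment over all 852 features tested), the strongest change among the 23.

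ArgTCT, 1 of 5 arginine anticodons, was at 63.5, 23.2, 36.4 and 42.7 RPM in controls and at 14.3, 6.72, 8.88 and 5.69 RPM in cKO libraries. It fell by 2.22 on the log2 scale (SE 0.44, edgeR adjusted p = 0.00779), and every cKO library was below every control. ThrAGT was at 18.2, 36.0, 30.0 and 20.8 RPM in controls and at 2.49, 9.80, 9.12 and 2.17 RPM in cKO libraries, again without overlap, and its log2 change was -2.17 (SE 0.59, edgeR adjusted p = 0.0357).

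ArgTCG was at 119, 46.1, 53.8 and 72.0 RPM against 22.7, 26.9, 16.2 and 19.4 RPM. Its log2 change was -1.77 (SE 0.36, edgeR adjusted p = 0.00912). GlnTTG was at 306, 201, 136 and 171 RPM against 89.4, 114, 84.5 and 55.4 RPM, with a log2 change of -1.25 (SE 0.32, edgeR adjusted p = 0.0268). For both anticodons all 4 cKO libraries lay below all 4 controls. These 5 anticodons were the members called, all lower, of 23 tested, while 11.4% of all features were called in this comparison and 10.8% were called lower. Among the other tRNA anticodons 10 of 27 were called lower. The median log2 change was -1.10 over the members, -1.11 over the other tRNA anticodons and -0.43 over all features.

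The calls for ThrCGT, ArgTCT and ArgTCG were kept in every alternative. The call for ThrAGT was lost without control library 2, 3 or 4 or without cKO library 1 or 4, and that for GlnTTG without control library 1 or 2 or without cKO library 1, 3 or 4. The count was 3 without cKO library 1 and 9 without cKO library 2. Scaling moved the comparison: the median over all features was -0.43 with the table total, -0.20 with TMM and -0.06 with DESeq2 size factors, and the members' median was -1.10, -0.92 and -0.76. With TMM 2 members were called higher and 5 lower, where 46 and 95 of all 852 features were. With DESeq2 the counts were 4 higher and 8 lower, where 102 and 127 of all features were.

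Phenylalanine and proline fragments lay the other way. PheGAA was at 84.2, 66.7, 35.1 and 22.6 RPM in controls and at 155, 160, 77.0 and 63.9 RPM in cKO libraries. ProTGG was at 92.3, 125, 77.5 and 105 RPM against 281, 267, 128 and 101 RPM. The 2 groups overlapped for both, and the differences did not pass the test over all features, with log2 values of 1.13 (SE 0.46, edgeR adjusted p = 0.145) and 0.96 (SE 0.36, edgeR adjusted p = 0.116).

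Set against tRNA reads alone, more of the members were called, near the share over all tRNA anticodons, and proline and phenylalanine rose. Of the 23, 9 were lower and 4 higher as a share of tRNA reads, where 50% of all 50 tRNA anticodons tested were called, 40% lower and 10% higher. ThrCGT again fell most, by 3.25 on the log2 scale (SE 0.39, edgeR adjusted p = 0.000169). IleTAT and IleGAT, of isoleucine, were lower by log2 values of -2.13 and -1.82 (edgeR adjusted p = 0.0401 and 0.0384). AsnGTT and TyrGTA fell by 1.23 and 1.17 on the log2 scale (edgeR adjusted p = 0.0401 and 0.0452). The 4 anticodons that rose were PheGAA with a log2 change of 1.45 (edgeR adjusted p = 0.0203), ProTGG with 1.26 (edgeR adjusted p = 0.0116), and ProAGG and ProCGG with 1.01 each (edgeR adjusted p = 0.0384 and 0.0452). As the 3 proline labels share sequence outside the anticodon, they are not independent of each other. With TMM 4 members were called higher and 3 lower on this scale, where 9 and 10 of all 50 tRNA anticodons were. With DESeq2 the counts were 6 higher and 3 lower, where 13 and 10 of the 50 were. The median over all tRNA anticodons was -0.68, and -0.17 and -0.09 with those scalings. Without single libraries the count of 13 was 6 without control library 1, 4 without cKO library 1, 5 without cKO library 2, 8 without cKO library 3 and 6 without cKO library 4.

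**Figure D3:**
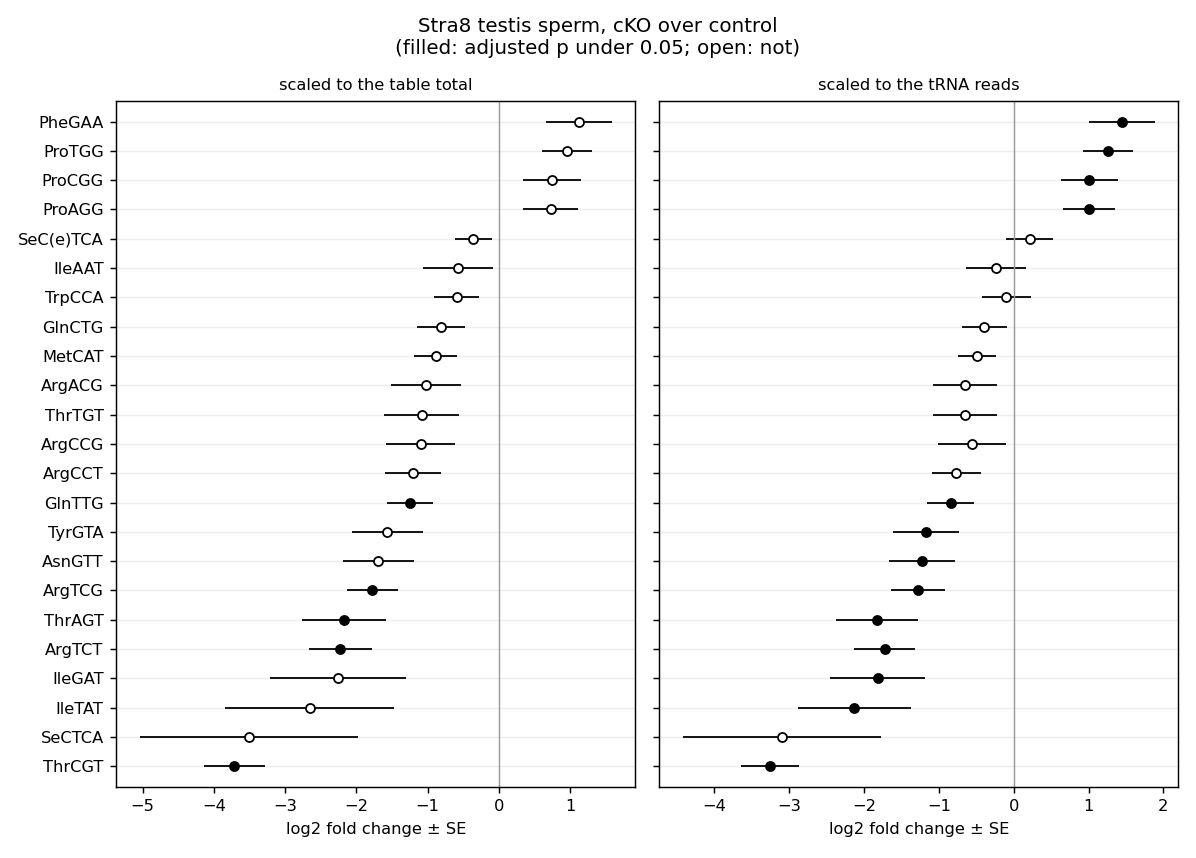
Log2 difference between cKO and control Stra8-iCre testis sperm for the 23 anticodons, with SE bars, against the table total (left) and against tRNA reads alone (right), filled points having an adjusted p under 0.05. ThrCGT is lowest on both scales, at -3.72 and -3.25, and the proline anticodons and PheGAA lie to the right of 0.

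Single genes carried part of these changes. The gene chr11.trna550-ThrCGT was at 230, 81.8, 118 and 116 RPM in controls and at 15.8, 6.35, 8.88 and 6.90 RPM in cKO libraries. The groups stood far apart, and the gene fell by 3.85 on the log2 scale (SE 0.45, edgeR adjusted p = 0.000672), between -4.21 and -3.29 over the 12 alternatives. The gene chr19.trna639-ArgTCT, 1 of the intron-bearing arginine genes, was at 18.4, 4.55, 5.11 and 1.25 RPM against 0.524, 0, 0.243 and 0.414 RPM, with a log2 change of -4.48 (SE 1.05, edgeR adjusted p = 0.0147). Few reads in the cKO libraries make the size of that fold uncertain, and its call was lost without control library 1 or cKO library 3.

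The gene chr13.trna109-TrpCCA was at 18.2, 14.8, 5.94 and 9.16 RPM against 1.83, 2.91, 3.04 and 2.87 RPM, with a log2 change of -2.17 (SE 0.55, edgeR adjusted p = 0.0207), a call lost without the filter and without control library 2 or cKO library 1, 3 or 4. In all, 8 of the 132 genes tested were called, all lower, where 13.7% of all features were called and 13% called lower. They were 2 of 2 ArgTCT, 2 of 6 GlnTTG, 2 of 8 TrpCCA, 1 of 4 ArgTCG and 1 of 2 ThrCGT genes. The count was 1 without cKO library 3, 4 without control library 1, cKO library 1 or cKO library 4 and 5 without control library 4. With TMM 11 genes were called higher and 7 lower, where 55 and 135 of all 1174 features were. With DESeq2 the counts were 19 higher and 13 lower, where 168 and 173 of all features were.

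Other RNA moved between the same libraries. The microRNA class was at 154569 to 236661 RPM in controls and 31514 to 133631 RPM in cKO libraries. The summed level of 8 microRNAs of germ cells, which themselves need DGCR8, was 19850 to 26234 RPM against 2184 to 5074 RPM. The 3 blood microRNAs Mir144, Mir451a and Mir486 summed to 8155 to 34948 RPM against 3483 to 19486 RPM, and 5 epithelial microRNAs to 228 to 1188 RPM against 66.0 to 399 RPM. Their part in the tRNA differences was not tested, and fewer cells of a type and less RNA per cell cannot be told apart in such samples.

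In cauda sperm of the same line no anticodon passed the test. The edgeR count was 0 of 22 tested, where 8.1% of all features were called, 2.53% higher and 5.57% lower. At an unadjusted p under 0.05 there were 3, against 160 of all 790 features. DESeq2 called 4, against 126 of 790. ThrCGT was at 55.2, 79.2, 161 and 207 RPM in controls and at 48.8, 43.0, 62.7 and 59.8 RPM in cKO libraries, which overlap at the lowest control. Its log2 difference was -1.23 (edgeR adjusted p = 0.11). The lowest p was that of IleTAT, at 5.96, 4.92, 12.3 and 12.2 RPM against 2.16, 2.30, 4.66 and 5.53 RPM, with a log2 difference of -1.28 (SE 0.40, edgeR adjusted p = 0.0515). The edgeR count was 2 without control library 1 or 2 and 1 without cKO library 4. The members' median was -0.19 and that of all features -0.10. Against tRNA reads alone 0 of 22 were called by edgeR, with 4 at an unadjusted p under 0.05, against 14 of all 49 tRNA anticodons. DESeq2 called 4, against 13 of 49.

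At the level of single genes, chr19.trna108-PheGAA was higher in cKO cauda sperm. It was at 13.7, 18.2, 14.999 and 16.5 RPM in controls and at 62.1, 20.1, 51.3 and 52.5 RPM in cKO libraries, without overlap although cKO library 2 lay close to the controls. Its log2 change was 1.55 (SE 0.39, edgeR adjusted p = 0.0295), and the call was lost without control library 3 or 4 or without cKO library 1, 3 or 4. It was the only one of 130 genes called, where 5.59% of all features were called. The count was 0 without any of those 5 libraries, 5 without control library 1 and 4 without control library 2. With DESeq2 it was 5, 4 of those lower, where 163 of all 1091 features were called.

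Whether the Stra8-iCre genotype difference itself changed between testis and cauda sperm was tested as an interaction. ThrCGT had an interaction of 2.49 on the log2 scale (SE 0.60, edgeR adjusted p = 0.0238) and ArgTCT one of 2.06 (SE 0.52, edgeR adjusted p = 0.0293), so the testis sperm loss of each was larger than the difference in cauda sperm. ArgTCT was at 92.1, 108, 103 and 109 RPM in cauda controls and at 138, 92.0, 72.2 and 64.8 RPM in cauda cKO libraries, with controls inside the cKO range. These were 2 of 23 tested, where 2.28% of all features were called. The count was 0 with TMM, where 13 of all 920 features were called. DESeq2 called 3 higher and 3 lower, where 46 and 23 of all 920 features were. The edgeR count was 0 without testis control library 1, testis cKO library 3 or cauda control library 1 or 2. The count was 1 without testis cKO library 2 or 4, cauda control library 3 or 4 or cauda cKO library 1 or 2.

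In the Defb41-iCre line no anticodon was called in sperm on the scale of the table total. Loss of Dgcr8 in its epididymis was not measured here. The microRNA class there had means of 777264 RPM in cKO and 716273 RPM in control caput, and 823055 and 798860 RPM in cauda. The 5 epithelial microRNAs summed to means of 1902 and 3770 RPM in caput and 4373 and 6786 RPM in cauda. In Defb41-iCre testis sperm 0 of 21 were called by edgeR, where 0.116% of all features were called. At an unadjusted p under 0.05 there were 7, against 96 of all 1721 features. DESeq2 called 5, against 26 of 1721. SeC(e)TCA was at 93.6, 114, 88.8 and 145 RPM in controls and at 577, 1151, 112 and 137 RPM in cKO libraries, high in cKO libraries 1 and 2 and inside the control range in the other two. Its log2 difference was 2.17 (edgeR adjusted p = 0.477). ThrTGT was at 17.2, 8.46, 7.64 and 7.47 RPM against 39.1, 43.1, 30.7 and 14.6 RPM, with a log2 difference of 1.64 (edgeR adjusted p = 0.477). The members' median was 0.90, that of the other tRNA anticodons 1.30 and that of all features 0.27.

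Against tRNA reads alone 4 of 21 anticodons were lower in Defb41-iCre testis sperm, where 16% of the tRNA anticodons were called. ThrCGT changed by -4.01 on the log2 scale (SE 1.04), ArgACG by -2.43 (SE 0.77), MetCAT by -1.73 (SE 0.56) and GlnCTG by -1.48 (SE 0.44), all at an edgeR adjusted p of 0.0462. The sizes for ThrCGT, ArgACG and MetCAT rest on control library 1, while that of GlnCTG changed little without it. ThrCGT was at 295, 8.66, 3.06 and 3.07 RPM in controls and at 21.7, 25.3, 8.59 and 6.24 RPM in cKO libraries. Without that control library the values were -0.68, -0.61, -0.72 and -1.35 and none was called. The count was also 0 without cKO library 1, 2 or 3, 1 without cKO library 4, 7 without control library 3, and 0 with TMM or DESeq2. The median over all tRNA anticodons on this scale was -0.76, and -0.07 with TMM. With TMM or DESeq2 0 of all 50 tRNA anticodons were called.

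By single genes 0 of 134 were called by edgeR in testis sperm of this line, where 1.5% of all features were called. At an unadjusted p under 0.05 there were 26, against 214 of all 2062 features. DESeq2 called 10, against 110 of 2062. The edgeR count was 7 without control library 1, 1 without cKO library 3 and 3 without cKO library 4.

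In Defb41-iCre cauda sperm, which passes through the tissue where this driver is active, 0 of 23 anticodons were called by edgeR, where 12.1% of all features were called. At an unadjusted p under 0.05 there was 1, against 304 of all 1796 features. DESeq2 called 1, against 450 of 1796. The 1 with the lowest p was SeC(e)TCA, at 1058, 220.4, 179, 716, 829.5, 1486, 392 and 715 RPM in the 8 controls and at 509.7, 404, 162, 476, 153, 264, 107 and 383 RPM in the 8 cKO libraries. The groups overlap widely, and the log2 difference was -1.20 (SE 0.54, edgeR adjusted p = 0.178). Against tRNA reads 0 of 23 were called by edgeR, with 0 at an unadjusted p under 0.05, as over all 53 tRNA anticodons. DESeq2 called 1, against 5 of 53. By single genes 0 of 153 were called by edgeR, where 12.3% of all features were called. At an unadjusted p under 0.05 there were 8, against 381 of all 2178 features. DESeq2 called 8, all higher in cKO libraries, against 523 of 2178, of which 220 were higher. In the first series alone edgeR called 5, all lower, with no share over all features given. These alternatives thus went opposite ways. The edgeR count was 2 without cKO library 6 and 1 without control library 3 or cKO library 7. The members' median was -0.02 and that of all features 0.15.

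The interaction in this line, over testis sperm and the first series of cauda sperm, gave 4 calls of 22 tested, where 12% of all features were called and 11.8% called lower. They were ThrAGT at -3.38 (SE 1.05, edgeR adjusted p = 0.0258), ArgCCT at -2.77 (SE 0.90, edgeR adjusted p = 0.0349), ThrTGT at -2.76 (SE 0.89, edgeR adjusted p = 0.0348) and SeC(e)TCA at -2.65 (SE 0.89, edgeR adjusted p = 0.0447) on the log2 scale. Without cauda control library 4 the values of ThrAGT, ArgCCT and ThrTGT were -1.19, -1.30 and -0.88 (edgeR adjusted p = 0.705, 0.513 and 0.842). The count was 0 with TMM or DESeq2, where 244 and 223 of all 1790 features were called. It was 1 without testis control library 1 and cauda control library 4 together. It was 10 without testis control library 1 alone, and 0 without testis control library 2, cauda control library 4 or cauda cKO library 1. It was 1 without testis control library 3, testis cKO library 1 or cauda cKO library 2, and 2 without testis control library 4, testis cKO library 2 or cauda cKO library 3.

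From testis to cauda most of the anticodons were higher as a part of all small RNA in both lines. Markers of other cells differed in this contrast too. In Stra8-iCre controls the 3 blood microRNAs summed to 8155 to 34948 RPM in testis sperm and 205 to 573 RPM in cauda sperm, the 5 epithelial microRNAs to 228 to 1188 RPM and 1942 to 6921 RPM, and Mir143, of smooth muscle, was at 11363 to 30682 RPM and 4235 to 6696 RPM. The 8 germ cell microRNAs summed to 19849.7 to 26234 RPM and 3423 to 8015 RPM. In Defb41-iCre controls the blood microRNAs summed to 6420.4 to 15799 RPM in testis and 102 to 1139 RPM in first-series cauda sperm, and the epithelial ones to 32.5 to 90.6 RPM and 1614 to 3936 RPM. Mir143 was at 4321 to 36972 RPM and 4953 to 13649.5 RPM, and the germ cell microRNAs summed to 5008 to 11877 RPM and 846 to 4320.2 RPM. Their part in the tRNA differences was not tested.

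In Stra8-iCre controls MetCAT was at 794, 502, 465 and 496 RPM in testis sperm and at 3748, 7905, 5302 and 4558 RPM in cauda sperm. The ranges lay far apart, and the log2 change was 3.25 (SE 0.43, edgeR adjusted p = 4.51e-07). ProAGG was at 87.0, 131, 81.6 and 108 RPM and then at 2245, 578, 485 and 782 RPM, with a log2 change of 3.33 (SE 0.50, edgeR adjusted p = 1.69e-06).

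ThrAGT was at 18.2, 36.0, 30.0 and 20.8 RPM in testis and at 457, 358, 77.1 and 110.3 RPM in cauda sperm, and the first pair of cauda libraries was several times the second. Its log2 change was 3.25 (SE 0.52, edgeR adjusted p = 3.29e-06). TyrGTA went down, from 111, 48.1, 52.1 and 21.9 RPM to 10.2, 10.8, 12.8 and 15.1 RPM, with no overlap and a log2 change of -2.25 (SE 0.46, edgeR adjusted p = 7.08e-05).

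In these controls 14 of 22 anticodons were higher and 1 lower in cauda sperm, where 78.2% of all features were called, 7.5% higher and 70.7% lower. The members' median was 1.59, that of the other tRNA anticodons 1.68 and that of all features -2.57. ArgCCG, AsnGTT, SeC(e)TCA and TrpCCA rose by 2.06 to 2.39 on the log2 scale. PheGAA with -0.01 and ThrCGT with -0.25 were not called, as were IleTAT, IleAAT, IleGAT, GlnCTG and GlnTTG. The scale matters here: with TMM the median of all features was -0.01 in place of -2.57 and the members' median 4.12, and the change of TyrGTA turned to 0.46.

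As a share of tRNA reads the members went down much as all tRNA anticodons did. Of 22, 17 were lower in cauda sperm, where 79.6% of the tRNA anticodons were called and 73.5% called lower. The members' median was -2.12 and that of all tRNA anticodons -2.10. With TMM these medians became 0.24 and 0.26. Then 7 anticodons were called higher and 6 lower, where 17 and 13 of all 49 tRNA anticodons were. Of the members called lower with the tRNA total 10 turned positive, so the direction on this scale depends on the scaling.

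**Figure D4:**
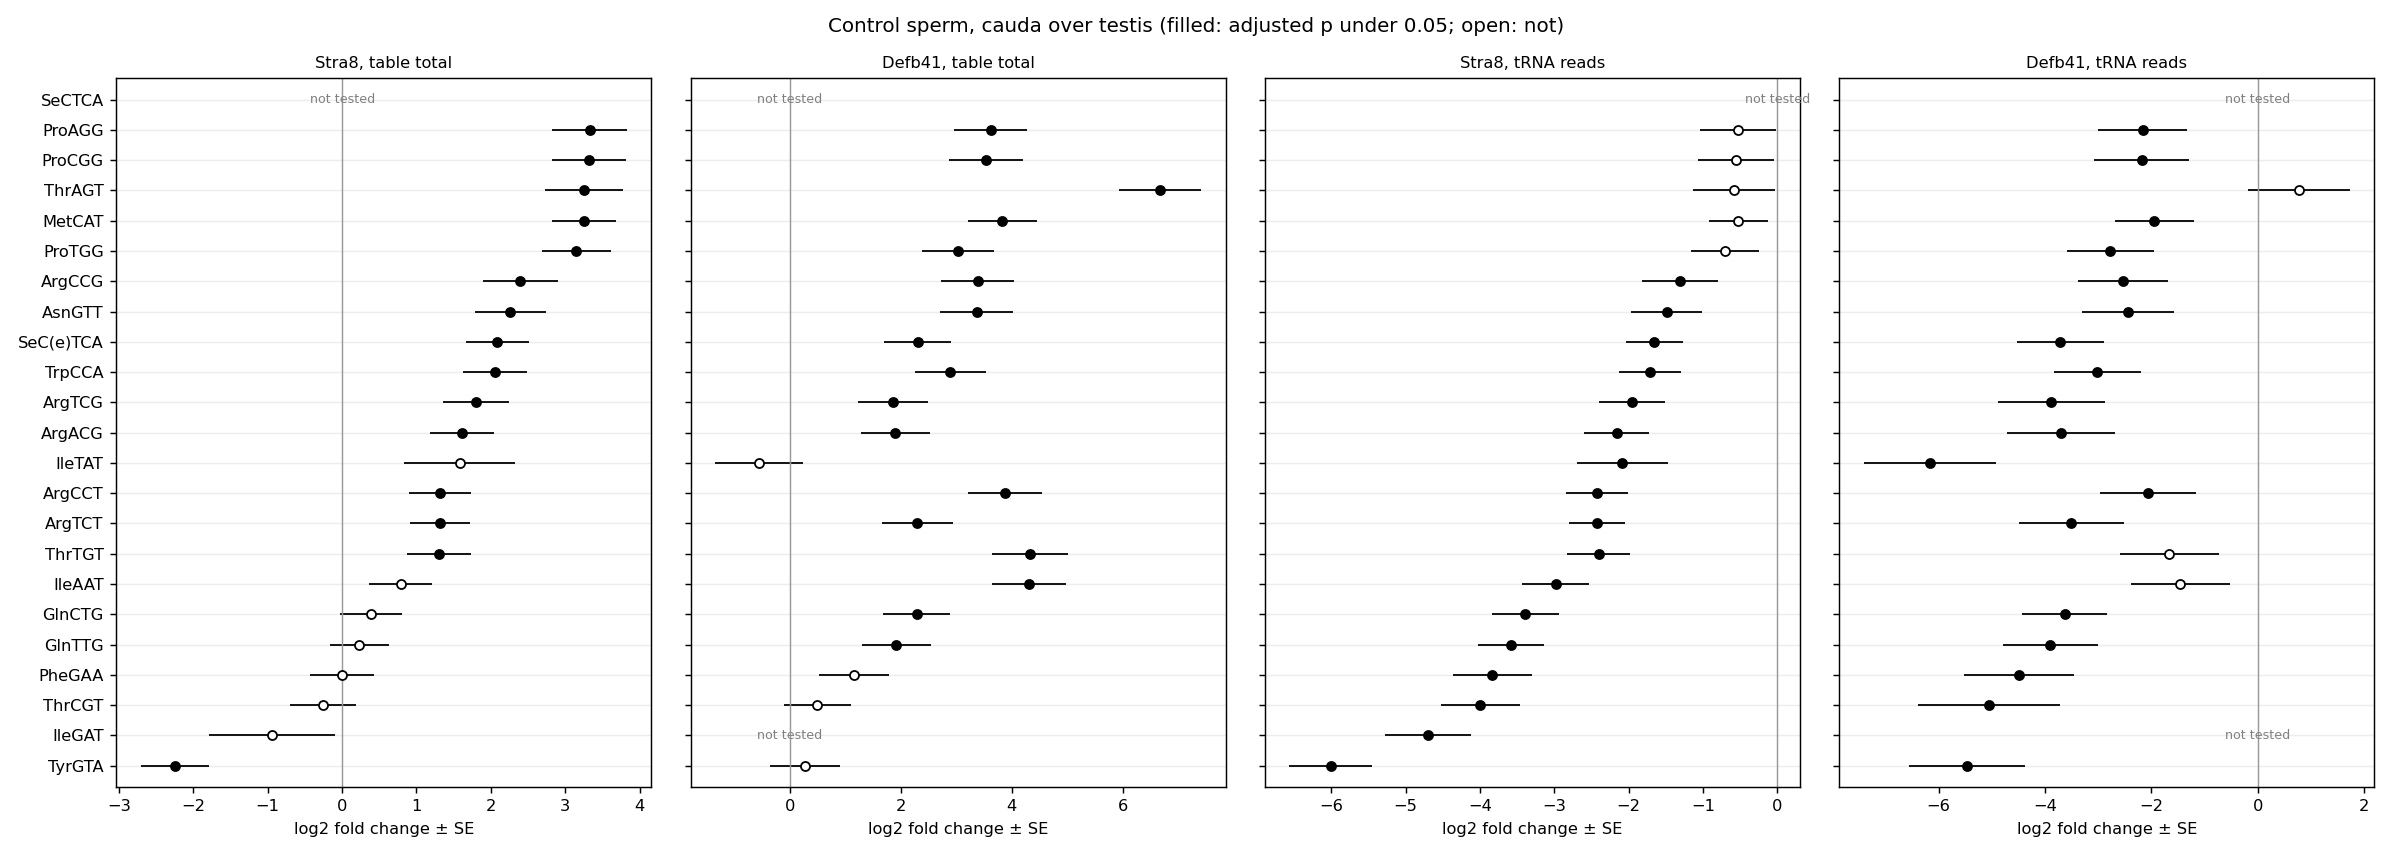
Log2 difference between cauda and testis sperm of controls for the 23 anticodons, with SE bars, in the Stra8-iCre and Defb41-iCre lines (first series of cauda sperm), each against the table total and against tRNA reads, filled points having an adjusted p under 0.05. Most points lie above 0 on the first scale, with ThrAGT at 3.25 and 6.68 and TyrGTA at -2.25 and 0.26, and below 0 on the second, where TMM turns 10 of them in the Stra8-iCre line and 7 in the Defb41-iCre line.

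In Stra8-iCre cKO sperm 19 of 23 anticodons were higher and 2 lower in cauda than in testis, where 77.5% of all features were called, 12% higher and 65.5% lower. ThrAGT rose by a log2 value of 5.30 (SE 0.64, edgeR adjusted p = 1.35e-05) and MetCAT by 4.55 (SE 0.42, edgeR adjusted p = 6.86e-06). ThrCGT, not called in controls, rose by 2.23 (edgeR adjusted p = 6.39e-05), and ProAGG, ProCGG and ProTGG by 1.65 to 1.77. TyrGTA and SeCTCA were lower. With TMM and DESeq2 TyrGTA turned to 0.74 and 1.06.

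Single genes showed the same split. In Stra8-iCre controls 69 of 138 were higher and 12 lower in cauda sperm, where 72.7% of all features were called, 19.2% higher and 53.5% lower. All 9 TyrGTA genes tested were lower, by log2 values of -3.76 to -1.61. For MetCAT 13 of 18 genes were higher and 1 lower, and 6 of 7 ThrAGT, 6 of 7 ProAGG and 3 of 3 ProCGG genes were higher. With TMM 120 genes were higher and 1 lower, where 440 and 382 of all 1178 features were.

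The initiator-type gene chr3.trna792-MetCAT was at 74.9, 58.2, 53.1 and 51.1 RPM in testis and at 412, 943, 641 and 556 RPM in cauda sperm, a wide gap. The gene chr13.trna73-ThrTGT was at 0, 0, 0.165 and 0 RPM in testis and at 4.39, 5.13, 1.74 and 2.22 RPM in cauda sperm (edgeR adjusted p = 5.53e-05), with too few reads in testis for a fold.

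The gene chr7.trna1217-ThrAGT was at 0.252, 1.98, 2.80 and 3.33 RPM in testis and at 62.4, 53.3, 6.20 and 11.9 RPM in cauda sperm. Every cauda library was above every testis library, and the log2 change was 3.94 (SE 0.73, edgeR adjusted p = 4.89e-05). For chr11.trna395-ThrAGT it was 4.02 (SE 0.73, edgeR adjusted p = 4.04e-05). RefSeq holds 3 genes with the sequence printed for chr7.trna1217-ThrAGT, so its reads could come from any of them.

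In Defb41-iCre controls, with the 4 cauda libraries of the first series, 17 of 21 anticodons were higher in cauda sperm and none was lower, where 41.5% of all features were called, 4.88% higher and 36.6% lower. ThrAGT was at 11.6, 3.92, 2.00 and 3.17 RPM in testis sperm and at 88.5, 140.2, 119.6 and 1778 RPM in the first series of cauda sperm. All cauda libraries were above all testis libraries, and control library 4 was far above the rest. The second series, which is not in this test, held 179, 91.2, 73.1 and 172 RPM. The log2 change of ThrAGT was 6.68 (SE 0.74, edgeR adjusted p = 4.5e-17), and 4.48 without cauda control library 4. MetCAT rose by 3.83 (SE 0.62, edgeR adjusted p = 1.36e-08), ThrTGT by 4.33, IleAAT by 4.31 and ArgCCT by 3.87. PheGAA, ThrCGT, IleTAT at -0.56 and TyrGTA at 0.26 were not called with the first series. The members' median was 2.89 and that of all features -1.24, and with TMM they were 4.34 and 0.24.

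Several anticodons stood apart between the series of these cauda sperm libraries, and no test was made between series. TyrGTA was at 11.8, 8.88, 6.12 and 64.3 RPM in the first series of controls and at 567, 375, 367 and 414 RPM in the second, and at 15.7, 10.7, 13.6 and 20.96 RPM against 219, 1753, 164 and 539 RPM in cKO libraries. The series did not overlap in either genotype. IleTAT was at 0.612 to 2.65 RPM in the first and 108 to 243 RPM in the second series of controls, and at 1.69 to 2.90 RPM and 60.4 to 839 RPM in cKO libraries. IleGAT and SeCTCA were higher in every second-series control as well, with at most 0.592 and 2.06 RPM in the first series and at least 13.97 and 12.7 RPM in the second. All rRNA of the controls was at 32748 to 195708 RPM in the first and 283183 to 547731 RPM in the second series, and all tRNA at 588262 to 865866 RPM and 266551 to 389766 RPM. Testis sperm of the controls held IleTAT at 8.75, 1.13, 1.06 and 0.512 RPM.

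As a share of tRNA reads 18 of 21 anticodons were lower in first-series Defb41-iCre cauda sperm, where 81.6% of the tRNA anticodons were called and 77.6% called lower. With TMM 1 was called higher and 3 lower, where 10 and 7 of all 49 tRNA anticodons were. With DESeq2 the counts were 5 higher and 3 lower, where 14 and 8 of the 49 were. Among single genes 102 of 129 were higher and 1 lower, where 46.5% of all features were called, 17.7% higher and 28.9% lower, and 68 were called without cauda control library 4. The gene chr7.trna1217-ThrAGT was at 0.805, 0.103, 0.118 and 0.102 RPM in testis and at 7.27, 16.2, 10.04 and 251 RPM in the first series of cauda sperm. Control library 4 was far above the rest, and the log2 change was 7.89 (SE 0.998, edgeR adjusted p = 1.69e-11), or 5.22 without that library. Few reads in testis make the size of that fold uncertain. The second series held 7.99, 4.56, 3.13 and 6.93 RPM. In cKO sperm of this line, again with the first series, 13 of 22 anticodons were higher and none lower, where 43.3% of all features were called, 2.72% higher and 40.6% lower. ThrAGT and MetCAT rose by 3.30 and 2.62 on the log2 scale.

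In the epididymis itself no anticodon was called between genotypes. In Stra8-iCre caput 0 of 21 were called by edgeR and by DESeq2, where edgeR called no feature and DESeq2 1 of 828. At an unadjusted p under 0.05 there were 2, against 102 of all 828 features. In Stra8-iCre cauda epididymis 0 of 21 were called by both tools. Over all features edgeR called 2.86%, 1.56% higher, and DESeq2 63 of 768. At an unadjusted p under 0.05 there was 1, against 83 of 768. In Defb41-iCre caput 0 of 22 were called by both, where edgeR called no feature and DESeq2 4 of 1212. At an unadjusted p under 0.05 there was 1, against 48 of all 1212 features. In Defb41-iCre cauda epididymis 0 of 20 were called by edgeR and 2 by DESeq2. Over all features edgeR called 11.8%, 0.209% higher, and DESeq2 111 of 958. At an unadjusted p under 0.05 there were 2, against 214 of 958. The edgeR count there was 1 without control library 1 or cKO library 3. The median of all features moved with TMM from -0.49 to -0.04 in Stra8-iCre caput, from -0.34 to -0.07 in Defb41-iCre caput and from -0.55 to 0.17 in Defb41-iCre cauda. The members' median in these moved from -0.32 to 0.11, from 0.54 to 0.28 and from -0.26 to 0.49, so no direction is given for them. The Defb41-iCre caput groups have 3 libraries each, the shallowest, control library 2, holding 615991 counts. That library held piRNA at 359275 RPM, against 2651 and 5058 RPM in the other controls. The members took 12.5% of its tRNA reads, against 0.205 and 0.638%.

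Between caput and cauda epididymis of Stra8-iCre controls 2 of 21 anticodons were called, where 52.1% of all features were called, 8.87% higher and 43.2% lower. TrpCCA was at 17.8, 21.6, 10.1, 11.97, 19.8, 31.05 and 24.04 RPM in caput and at 11.96, 22.1, 24.4, 19.02, 93.2 and 115 RPM in cauda. The last 2 cauda libraries, which belong to the second series, were high and the rest lay inside the caput range. Its log2 change was 1.01 (SE 0.36, edgeR adjusted p = 0.0300). ArgTCG had a log2 change of -1.11 (SE 0.36, edgeR adjusted p = 0.0173). The count was 0 without the series term. The first series alone gave 4 calls, all lower in cauda, and the second alone 15, all higher, so the series went opposite ways. The share over all features in these fits is not given here. With TMM 11 were called and with DESeq2 12, all higher in cauda, where 247 and 274 of all 812 features were called higher. The median of all features moved with them from -0.86 to -0.10 and 0.04. The edgeR count was 5 without cauda control library 6 and 1 without caput control library 5 or 6 or cauda control library 3 or 5.

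The mRNA of genes linked to tRNA was measured in Stra8-iCre epididymis, with 3 control and 3 cKO libraries of caput and 4 and 4 of cauda. The list held 74 genes and is called the enzyme list for short. It holds enzymes that charge, trim, splice or modify tRNA, and ribonucleases, many of the RNase A family. A ribonuclease inhibitor, factors of the selenocysteine route and regulators of RNA polymerase III are also on it. Whether its ribonucleases cut tRNA was not tested. Of the 74, 62 were tested between genotypes in each segment. None was called in caput by limma, where 0.824% of 11776 genes were called, and none in cauda, where no gene was called. At an unadjusted p under 0.05 there were 6 in caput, against 1566 of 11776 genes, and 9 in cauda, against 1461 of 11527. The share of all genes called with the replicate number as a block is not given here. In that fit Rnase9, an epididymal RNase A family member, was called in cauda at a log2 change of -1.03 (SE 0.18, limma adjusted p = 0.0442). It was at 30.78, 25.08, 50.12 and 85.64 TPM in controls and at 15.03, 11.62, 15.41 and 62.24 TPM in cKO libraries, lower in each numbered pair although the groups overlap.

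Between caput and cauda of controls 17 of 63 genes were called by limma, 8 higher and 9 lower in cauda, where 39.8% of all genes were called, 21.1% higher and 18.7% lower. Members of the RNase A family differed most. Rnase10 was at 2424, 2906 and 2156 TPM in caput and at 5.68, 6.89, 3.94 and 2.03 TPM in cauda, a log2(TPM + 1) change of -8.87 (SE 0.30, limma adjusted p = 2.81e-08). Rnase13 was at 504, 20.5 and 35.2 TPM in caput and at 0.83, 0.77, 0.67 and 0.66 TPM in cauda, with caput library 1 far above the other two and a log2 change of -5.40 (SE 1.02, limma adjusted p = 0.00607). Rnase1 lay the other way, at 1.52, 0 and 0.18 TPM in caput and at 22.4, 20.8, 16.1 and 16.5 TPM in cauda, with a log2 change of 3.78 (SE 0.32, limma adjusted p = 8.09e-06).

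Of 13 ribonuclease and inhibitor genes tested 4 were higher and 4 lower in cauda, and Rnh1, the ribonuclease inhibitor, was lower, with a mean of 135 TPM in cauda and 347 in caput. Of 6 splicing genes 1 was higher and 1 lower. Rtcb, the tRNA ligase, fell from a mean of 557 to 129 TPM, with a log2 change of -2.10 (SE 0.14, limma adjusted p = 1.81e-06). Clp1, an RNA kinase of the splicing complex, rose from 5.49 to 16.8 TPM, with a log2 change of 1.45 (SE 0.17, limma adjusted p = 9.45e-05). Of 12 end-processing genes 1 was higher, Elac1 of RNase Z at 0.94 (limma adjusted p = 0.00899), and 2 were lower, among them Pop5 of RNase P at -0.81 (limma adjusted p = 0.00152).

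Of 11 synthetase genes 1 was higher, Tars for threonine at 0.79 (limma adjusted p = 0.0419), of 15 modification genes 1 was higher and 1 lower, and of 4 genes of the selenocysteine route Eefsec, its elongation factor, was lower. The call for Tars was lost without caput library 1 or 2 or cauda library 1, 3 or 4, and that for Eefsec without caput library 2 or cauda library 1, 2 or 3. The median log2 change was 0.16 over the list and 0.11 over all genes. The count of 17 was 11 without caput control library 2.

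**Figure D5:**
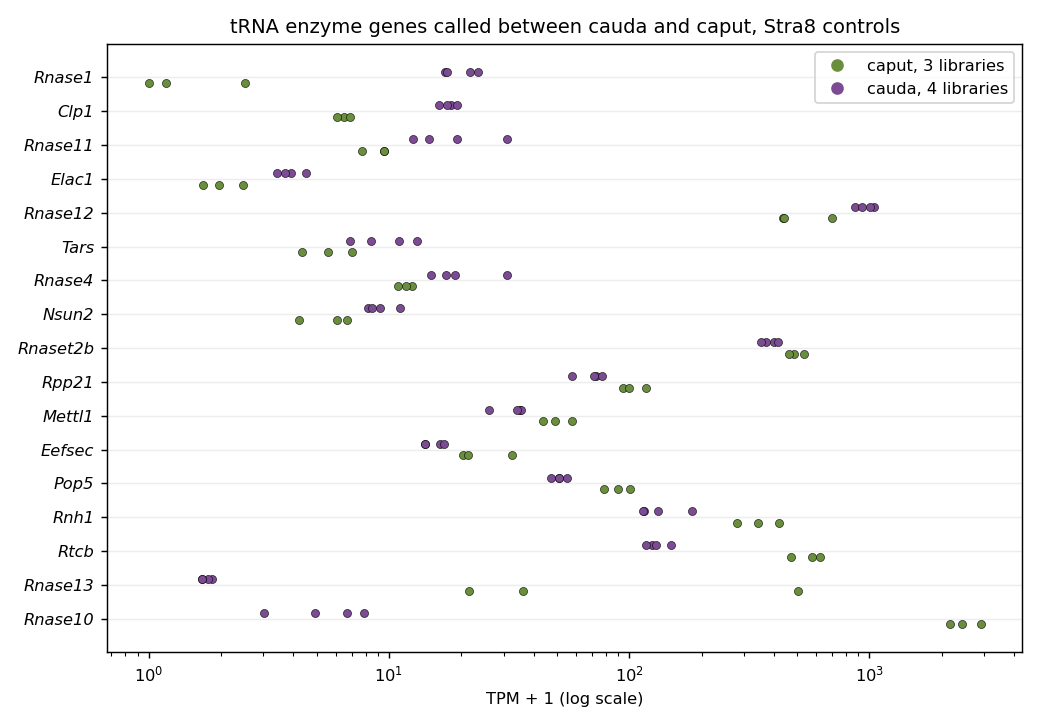
Level of the 17 called genes of the enzyme list in caput (3 control libraries, green) and cauda epididymis (4 control libraries, purple) of the Stra8-iCre line, in TPM + 1 on a log axis. Rnase10 lies at 2156 TPM or more in caput and at 6.89 TPM or less in cauda, and Rnase1 lies at 16.1 TPM or more in cauda and at 1.52 TPM or less in caput.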

How the data were processed

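Small RNA of sperm and epididymis and mRNA of epididymis were sequenced. The deposited small RNA tables hold raw counts per feature, and the deposited mRNA table holds TPM values. Bowtie2 and RSEM are named, per the submitters' processing notes, and the build is mm10, per the labels. Their versions and how reads with several matches were counted are not stated in those notes or labels. The members, gene lists and tests were chosen with earlier results of these data known.

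Genes were summed per anticodon label. edgeR 4.0.16 (quasi-likelihood, R 4.3.3) was run on the features that reached 10 counts or more in a number of libraries equal to the size of the smaller group, the library size being the table total or, for the tRNA scale, the tRNA total, with no composition factor and Benjamini-Hochberg adjustment at 0.05. limma 3.58.1 (trend, robust) was run on log2(TPM + 1) of genes with at least 1 TPM. A fold change there understates the change of low genes. Library series was a term where both groups held both; Defb41-iCre cauda against testis and the interaction used the first series. SE is the log2 change divided by the square root of F. Alternatives were TMM, DESeq2 1.42.0, no filter, a replicate block, each library left out, and the series apart or ignored; omission of the libraries that stand apart was added after the data were seen. Tests were checked on simulated data: at the size of Stra8-iCre testis sperm, 78.5% of 4-fold and 93.9% of 8-fold changes were recovered. For the Stra8-iCre interaction these were 54.3% and 89.3%. For caput mRNA between genotypes 34.9% of 2-fold and 87.9% of 4-fold changes were recovered. The simulated data held no shift of a whole RNA class and no library that stands apart.

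All member anticodons could be named, with the gene of highest mean RPM per amino acid, the 3 called genes of largest change per comparison, and up to 5 called enzyme genes per role. The MetCAT gene shown and the uncalled anticodons described were chosen after their values were seen. For mRNA the replicate numbers pair the libraries between genotypes, since every such pair's deviations correlated above 0.1 (caput 0.22 to 0.47 over 3 pairs, cauda 0.34 to 0.49 over 4), but not between cauda and caput (-0.02 to 0.03 over 3 pairs). For small RNA no comparison met that rule, so pairing of some libraries is not excluded. Between genotypes 3 of 4 pairs passed 0.1 in Stra8-iCre cauda sperm, 4 of 6 in caput and 5 of 6 in cauda epididymis. In Stra8-iCre testis sperm 0 of 4 passed. Unused were 16 mRNA columns, those of the other line. Replicates differed beyond sampling noise, the lowest chi-square per feature being 14.6. RefSeq GRCm38.p6, the same build as mm10, gave the sequences, read with pysam 0.24.0, and 20 of 23 labels had RefSeq genes. Depth limits Defb41-iCre caput most, at 615991 counts in the shallowest library.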

Additional observations from a re-analysis of the deposited data

Results flagged for a closer look

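Single libraries lay far from the rest of their group by Dixon's test in 64 of 299 pairs of a group and an anticodon (21.4%) and in 7 of 26 group sums or shares. The test's chance rate of about 1 in 20 holds for independent, normal values. Here anticodons of a library are not independent, 16 of the 64 coming from 1 library, and library series were pooled. No excess over chance is therefore claimed, and groups of 3 libraries were not screened. Their causes were not tested. In Defb41-iCre cauda sperm cKO library 6 the member sum was 13785.7 RPM and the share 15.7% of tRNA reads. The anticodons above their group there were TyrGTA at 1752.8 RPM, ArgTCT at 1729 RPM, AsnGTT at 1357 RPM, IleTAT at 839 RPM, ThrCGT at 734 RPM, ProTGG at 696 RPM, GlnCTG at 647 RPM and ArgCCG at 625 RPM. They also included ArgTCG at 498 RPM, TrpCCA at 428 RPM, ArgACG at 379 RPM, ArgCCT at 341 RPM, GlnTTG at 322 RPM, ThrTGT at 301 RPM, IleGAT at 137 RPM and SeCTCA at 76.9 RPM.

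Control library 4 of the same cauda sperm summed to 13498 RPM, with ThrAGT at 1778 RPM, IleAAT at 1260.4 RPM, GlnCTG at 952 RPM, ArgCCT at 694 RPM, ThrTGT at 654 RPM and ArgACG at 281 RPM, and control library 5 held SeCTCA at 67.5 RPM. Control library 1 of Defb41-iCre testis sperm summed to 1743 RPM, with MetCAT at 513 RPM, ThrCGT at 295 RPM, ArgACG at 107 RPM, IleAAT at 56.3 RPM, ProTGG at 55.7 RPM, PheGAA at 47.0 RPM, AsnGTT at 41.9 RPM, ProAGG at 35.4 RPM, ProCGG at 21.7 RPM, ThrTGT at 17.2 RPM, IleTAT at 8.75 RPM and SeCTCA at 8.25 RPM. In cKO library 4 of that sperm IleTAT at 2.05 RPM and ThrAGT at 3.63 RPM were low.

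In Stra8-iCre testis sperm control library 1 summed to 4241 RPM, with GlnCTG at 1057 RPM, MetCAT at 794 RPM, TrpCCA at 248 RPM, IleAAT at 158 RPM, AsnGTT at 126 RPM and SeCTCA at 59.0 RPM. In cKO library 1 the share of tRNA reads was 5.18%, and in cKO library 2 AsnGTT was at 30.9 RPM. In cauda sperm control library 1 held ProAGG at 2245 RPM, ProCGG at 1175 RPM, GlnCTG at 1129 RPM and AsnGTT at 482 RPM, while GlnTTG was low at 167 RPM in control library 2 and at 176 RPM in cKO library 2.

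In the epididymis, control library 6 of Stra8-iCre cauda had 4.61% of its tRNA reads in the members, with GlnCTG at 836 RPM, GlnTTG at 143 RPM, TyrGTA at 22.3 RPM, PheGAA at 12.4 RPM, IleTAT at 6.83 RPM, IleGAT at 3.02 RPM and SeCTCA at 0.448 RPM. In cKO library 6 ArgACG was at 83.5 RPM and TyrGTA at 21.4 RPM. In Stra8-iCre caput IleTAT was at 444 RPM in cKO library 3, SeC(e)TCA at 95.3 RPM in cKO library 2 and ArgTCT at 324 RPM in control library 1. In Defb41-iCre cauda control library 1 GlnTTG was at 17.4 RPM and ThrCGT at 9.92 RPM.

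The genotype difference changed between testis and cauda sperm by the interaction test for ThrCGT (2.49 on the log2 scale) and ArgTCT (2.06) in the Stra8-iCre line. In the Defb41-iCre line it did so for ThrAGT (-3.38), ArgCCT (-2.77), ThrTGT (-2.76) and SeC(e)TCA (-2.65). With TMM no call of either line was kept, nor with DESeq2 in the Defb41-iCre line. One caput epididymis library, titled as homozygous and labelled with the control genotype, was placed in no group, and the members summed to 2885.9 RPM there.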

How the results depend on the processing

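Over all alternatives 322 counts of calls stayed within 1.5 times and 111 moved further; of the single values 1637 of 1968 kept their side of the threshold and their sign, 296 lost their call and 35 reversed. The causes were not tested. Counts of members as reported and as changed follow. Counts over all features moved with the scaling too, as in Stra8-iCre testis sperm, from 97 of 852 to 141 with TMM and 229 with DESeq2.
With TMM, Stra8-iCre cauda sperm gave 2 anticodons for 0, testis sperm 7 for 13 within tRNA reads and 18 genes for 8, the interaction 0 for 2 and epididymal cauda against caput 11 for 2. The Defb41-iCre interaction gave 0 for 4, testis sperm 0 for 4 within tRNA reads, transit 4 for 18 within tRNA reads and cauda sperm 2 genes for 0.
With DESeq2, the Stra8-iCre line gave 12 for 5 in testis sperm, with 32 genes for 8. It gave 4 for 0 in cauda sperm, also within tRNA reads, with 5 genes for 1. It gave 6 for 2 in the interaction, 122 genes for 81 in transit and 12 for 2 in the epididymis. The Defb41-iCre line gave 5 for 0 in testis sperm, 0 for 4 within tRNA reads and 10 genes for 0. Cauda sperm gave 1 for 0 on both scales and 8 genes for 0, cauda epididymis 2 for 0, cKO transit 20 for 13, control transit within tRNA reads 8 for 18 and the interaction 0 for 4.
Without a filter, Stra8-iCre cauda sperm gave 1 anticodon for 0 and 3 genes for 1. In the epididymis the contrast of segments gave 0 without the series term, 4 in the first series, all lower in cauda, and 15 in the second, all higher. Defb41-iCre cauda sperm gave 5 genes for 0 in the first series, all lower in cKO libraries. Without the libraries that stand apart, chosen after seeing the data, the Defb41-iCre interaction gave 1 for 4.
With a replicate block, though the small RNA numbers did not meet the rule for pairing, Stra8-iCre testis sperm gave 8 for 5, 8 for 13 within tRNA reads and 4 genes for 8. Cauda sperm gave 3 for 0, 3 for 0 within tRNA reads and 5 genes for 1, the interaction 1 for 2 and the epididymal segments 0 for 2. Defb41-iCre testis sperm gave 0 for 4 within tRNA reads, the interaction 0 for 4 and cauda sperm 1 gene for 0. The enzyme mRNA of cauda epididymis, where the numbers pair, gave 1 for 0, with no share over all genes given. The calls for chr19.trna639-ArgTCT and chr13.trna109-TrpCCA in Stra8-iCre testis sperm and for Tars were lost with the block. It moved no other count by over 1.5 times.
Reversed values on the log2 scale were those of TyrGTA in Stra8-iCre transit, 0.46 with TMM and 0.44 with DESeq2 in controls and 0.74 and 1.06 in cKO sperm. Within tRNA reads the Stra8-iCre control transit reversed with TMM for ArgACG 0.28, ArgCCG 1.18, ArgCCT 0.00047, ArgTCG 0.45, ArgTCT 0.010, AsnGTT 1.02, IleTAT 0.20, SeC(e)TCA 0.69, ThrTGT 0.050 and TrpCCA 0.69, and with DESeq2 for ArgACG 0.15, ArgCCG 1.03, ArgTCG 0.30, AsnGTT 0.9998, IleTAT 0.069, SeC(e)TCA 0.55 and TrpCCA 0.59. The Defb41-iCre transit reversed with TMM for ArgCCG 0.28, ArgCCT 0.58, AsnGTT 0.36, MetCAT 1.27, ProAGG 0.82, ProCGG 0.84 and ProTGG 0.18, and with DESeq2 for ArgCCG 0.78, ArgCCT 0.71, AsnGTT 0.62, MetCAT 1.91, ProAGG 1.28, ProCGG 1.31 and ProTGG 0.67.
Leaving out each library in turn gave these ranges. Stra8-iCre testis sperm gave 3 to 9 anticodons, 4 to 13 within tRNA reads and 1 to 10 genes, and cauda sperm 0 to 2, 0 to 3 and 0 to 5. Control transit gave 15 to 17, 16 to 20 and 78 to 90, cKO transit 20 to 21, the interaction 0 to 2, epididymal segments 1 to 5 and enzyme mRNA between segments 11 to 20. Defb41-iCre testis sperm gave 0, 0 to 7 within tRNA reads and 0 to 7 genes, and cauda sperm 0, 0 and 0 to 2. Control transit gave 13 to 19, 13 to 20 and 68 to 120, cKO transit 11 to 13, the interaction 0 to 10 and cauda epididymis 0 to 1. The remaining epididymal comparisons gave 0 throughout.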

Other observations

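Fragment levels of the Stra8-iCre cauda epididymis differed between library series. The member sum had a mean of 1305 RPM in the first and 7358 RPM in the second series of controls. All tRNA had means of 49278 and 191950 RPM there, and the members' mean share of tRNA reads was 2.67 and 3.77%. MetCAT was at 482 and 3013 RPM and ThrAGT at 163 and 1532 RPM, while ArgCCG, the arginine anticodon with 1 leading gene, was at 106 and 78.5 RPM. The second series holds 2 control libraries, and no test was made between series.

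The caput library placed in no group had MetCAT at 1096 RPM, ThrAGT at 245 RPM and TrpCCA at 32.8 RPM. TrpCCA lay above the highest control, at 31.05 RPM, and the highest cKO library, at 26.05 RPM.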
